A study of Mus musculus with 8 samples.

Results

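The Trim genes of mouse microglia were described from a deposited table of expression values, in which a gene belongs to the family when its symbol is Trim followed by a number and at most 1 small letter. This rule found 68 of the 37447 genes of the table, and no measured value entered it. The 68 entries carry 67 symbols, since Trim30b is listed under 2 Ensembl identifiers. Microglia, the macrophages of the central nervous system, had been flow sorted from the optic nerves of C57BL/6 mice at 3 months of age. The 4 control libraries, FF 1 to FF 4, came from Nf1 flox/flox mice, whose floxed Nf1 alleles are intact in the absence of Cre. The 4 FFC libraries, FFC 1 to FFC 4, came from Nf1 flox/flox; GFAP-Cre mice, so both genotypes carry the floxed alleles and the transgene is the difference between them. The GFAP promoter drives Cre in astrocytes and their precursors and is not known to be active in microglia, so the comparison asks how microglia differ when the surrounding glia can lose Nf1. In each genotype, replicates 1 and 4 were female and replicates 2 and 3 male. The labels used here do not say if animals were pooled for a library, and p-values measure the spread between these libraries.

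TRIM proteins share a RING finger, B-box zinc fingers and a coiled coil, followed by a C-terminal part that differs between subfamilies and often binds the target. Most act as ubiquitin ligases: the RING finger recruits a ubiquitin-conjugating enzyme and the C-terminal part chooses the substrate. In macrophages the family is known for antiviral defence and for control of the pathways that sense viral RNA and DNA, and several members are induced by interferon. Interferon acts through transcription factors that bind the interferon-stimulated response element (ISRE) and the gamma-activated site (GAS) in promoters.

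The promoters of the interferon-linked members are shown first because Trim30a and Trim30d lie among them. Trim30a was the 1 member of 49 tested whose genotypes did not overlap. It was higher in FFC, where 3.05% of all genes were higher without overlap. Trim30d had the largest difference. Trim30a and Trim30d were picked for their values in these data. RefSeq promoter windows of build GRCm38.p6, 250 bases before to 50 bases after an annotated start, were matched for 52 of the 67 symbols. The core of the ISRE was searched on both strands as GAAA, any 2 bases, then GAAA. It was present in 9 of the 52 Trim symbols (17.3%), against 1079 of 27025 gene symbols with a window (3.99%). The 9 were Trim2, Trim5, Trim12a, Trim12c, Trim21, Trim26, Trim30a, Trim30d and Trim34a, and all but Trim2 belong to the interferon-linked list described below, of which 13 symbols had a window (8 of 13, 61.5%). A GAS search with TTCNNNGAA found 6 of 52 Trim symbols (11.5%), namely Trim15, Trim30c, Trim31, Trim38, Trim45 and Trim46, against 9.55% of all symbols. Of the 13 interferon-linked symbols with a window, 1 had it (7.69%). In Trim2, Trim12a, Trim21 and Trim34a the ISRE match lies after the annotated start, within the last 50 bases of the window. Of the 9 symbols with the ISRE match, Trim2, Trim12a, Trim26 and Trim34a had a lower mean log2 level in FFC and the others a higher one. Interferon-linked symbols with a window but no ISRE match were Trim25, Trim30b, Trim30c, Trim34b and Trim56. Among these only Trim34b had a lower mean log2 level in FFC. A match is a description of the letters and not evidence of binding, and paralogous promoters share sequence. The 5 stretches below lie before the annotated start, except for the last bases of the Trim12c stretch, and are written 5′ to 3′ on the gene's strand with the ISRE match on either strand in capitals.
Trim30a: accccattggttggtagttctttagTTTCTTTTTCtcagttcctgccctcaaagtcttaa
Trim30d: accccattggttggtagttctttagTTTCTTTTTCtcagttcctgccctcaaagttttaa
Trim5: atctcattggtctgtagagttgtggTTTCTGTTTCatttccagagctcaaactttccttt
Trim12c: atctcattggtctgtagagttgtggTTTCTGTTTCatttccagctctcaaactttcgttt
Trim26: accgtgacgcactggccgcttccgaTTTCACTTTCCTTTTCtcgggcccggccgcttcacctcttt

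In GRCm38.p6 the Trim30a stretch is chr7:104465195-104465254, the Trim30d stretch chr7:104507856-104507915, the Trim5 stretch chr7:104288121-104288180 and the Trim12c stretch chr7:104353344-104353403, all on the minus strand. The Trim26 stretch is chr17:36836961-36837026 on the plus strand and holds 2 overlapping matches. The Trim30a and Trim30d stretches differed at 1 of 60 bases. A second annotated start of Trim30a also had the match, there after the start. The stretch of that start differed from the one shown at 14 of 60 bases. The stretch of Trim12a was identical to that of Trim5 over 60 bases, and Trim12c differed from both at 3 bases. The expression table uses another build, mm9, and all other positions below are mm9 with both ends counted from 1.

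The values were FPKM, fragments per kilobase of transcript scaled to a library's mapped fragments, so levels of different genes can be compared per length. No read counts were available, so the depth behind each value is unknown. Summed FPKM ranged from 370977 (FF 4) to 704266 (FF 1), and the Trim entries together made up 0.134% to 0.228% of it. All 10 microglial marker genes were above 0 in every library, with sums of 1693 to 5079 FPKM in FF and 3904 to 6536 FPKM in FFC. The libraries stood apart in other ways. Olfactory and vomeronasal receptor genes, which microglia are not known to use, held 1.68% to 4.52% of the FPKM in FF, highest in FF 2 and FF 4, and 0.727% to 1.64% in FFC. The summed level of 7 erythroid markers was 65.9 to 243 FPKM in FF and 34.4 to 64.2 FPKM in FFC, and that of 8 vascular markers 18.0 to 61.6 and 5.04 to 26.2 FPKM, with at most 1 marker of these 2 lists at 0 in a library. Summed levels of 6 neutrophil markers were 185 to 2417 FPKM in FF, highest in FF 1, where the microglial sum was 5021 FPKM, and 3.04 to 875 FPKM in FFC, with 1 to 4 of them at 0 in a library. Those of 7 T cell markers were 23.3 to 149 FPKM (FF) against 15.9 to 51.6 FPKM (FFC), with 0 to 2 at 0. Summed astrocyte markers were 51.8 to 196 FPKM in FF and 90.8 to 188 FPKM in FFC. Oligodendrocyte markers summed to 11.7 to 41.8 FPKM in FF and 10.3 to 50.5 FPKM in FFC. Muscle markers summed to 2.16 to 64.8 FPKM in FF, highest in FF 3, and 0.513 to 37.0 FPKM in FFC, highest in FFC 4. Their part in the results below was not tested, and a smaller share of a cell type cannot be told apart from less RNA per cell. The dates in the sample titles fell in November for FF 1 to FF 3 and FFC 1, and in December for the other libraries, and what a date marks is not stated.

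A mean of at least 1 FPKM, with no missing value, was required for the test, and 49 of the 68 entries met it. The 18 below it had means of 0.0633 to 0.936 FPKM, and Trim32 was left out because its value was missing in FF 2. Just inside the limit stood Trim69 and Trim10 (1.06 FPKM) and Trim31 (1.09 FPKM), and just outside it Trim46 (0.936 FPKM) and Trim54 (0.518 FPKM). Passing depended on 1 genotype for 9 members: the FF mean was below 1 FPKM for Trim52, Trim45 and Trim10, and the FFC mean for Trim7, Trim60, Trim40, Trim38, Trim31 and Trim69. Of all 68 entries, 21 were at or above 1 FPKM in every library, 10 never reached it and 22 were listed at 0 in at least 1 library. A listed 0 can be a failed estimate in such a table.

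A small part of the family carried most of its signal. By mean over the 8 libraries, Trim44 (218 FPKM), Trim12c (138 FPKM), Trim30a (124 FPKM) and Trim28 (119 FPKM) held 58.5% of the summed Trim level, and 18 entries had a mean of at least 10 FPKM. The order of those 4 is not resolved, since the ranges of their library values overlap. Single libraries set many of the levels: among tested members with no value of 0, 34 had a highest library at least 10 times the lowest. FF 2 held the highest value of 13 of the 49 tested members, more than any other library, and FFC 3 that of 3. Across the 49 members, Spearman correlations between libraries were 0.639 to 0.743 within FFC and 0.226 to 0.658 within FF, a description over genes that share libraries. Over all tested genes they were 0.578 to 0.659 within FFC and 0.375 to 0.507 within FF, also lower in FF. The median within-genotype SD of log2(FPKM + 1) was 1.17 for tested members and 1.23 for all tested genes. Pooled over both genotypes, Trim30a had the smallest SD of the tested members (0.46) and Trim44 the largest (2.66).

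**Figure D1:**
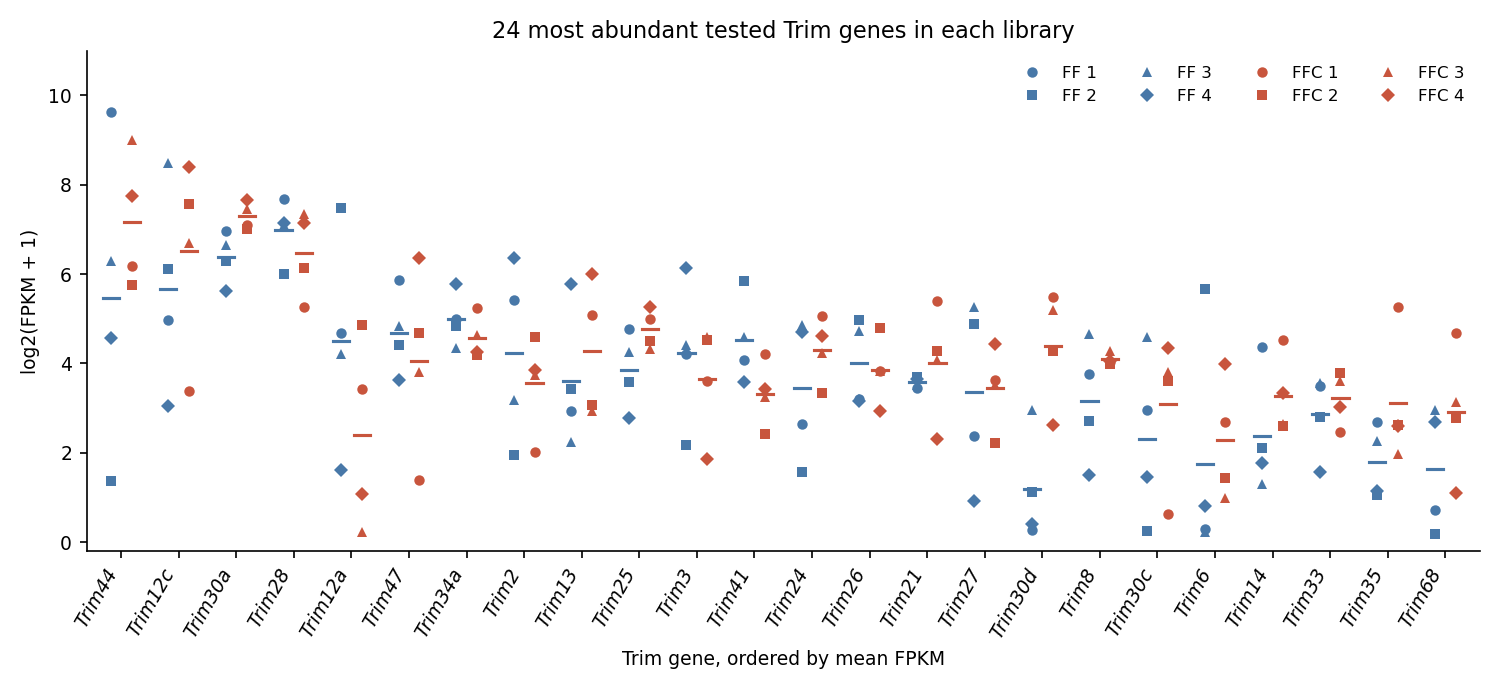
Log2(FPKM + 1) of the 24 tested Trim genes with the highest mean FPKM, ordered by that mean, with 1 symbol per library (blue FF, red FFC) and a bar at each genotype's mean of 4 libraries. Trim30a is the gene whose FFC symbols all lie above its FF symbols, while Trim44 spreads from 1.56 FPKM in FF 2 to 791 FPKM in FF 1.

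Genotypes were compared with limma on log2(FPKM + 1), with Benjamini-Hochberg adjustment over the 17753 genes tested, a scale that shrinks the differences of genes with few FPKM. No Trim member passed an adjusted p of 0.05 (smallest 0.605), and neither did any of the 17753 genes (0%). At an unadjusted p under 0.05, 1 member was higher in FFC (Trim30d), where 4.52% of all genes were, and 1 was lower (Trim60), where 1.94% were. Trim60 met the limit for testing only through its FF values. Its unadjusted limma p was not under 0.05 without the filter, with a pseudocount of 0.1 or 5, or with sex or month as a term. The mean was higher in FFC for 31 of 49 members (63.3%), against 56.7% of all genes, and lower for 18, against 43.3% of all genes. The median difference, FFC minus FF, was 0.22 on the log2 scale for the members and 0.19 for all genes, so the family as a whole lay close to the background. With upper-quartile, quantile or equal-sum scaling the all-gene median dropped to between 0.02 and 0.04, the members' median was 0.058 to 0.14, and 27 of 49 members (55.1%) were higher, against 50.9% to 51.6% of all genes. The values of the 2 genotypes did not overlap for 1 member higher in FFC, Trim30a, against 3.05% of all genes, and for 0 members lower in FFC, against 1.29%.

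**Figure D2:**
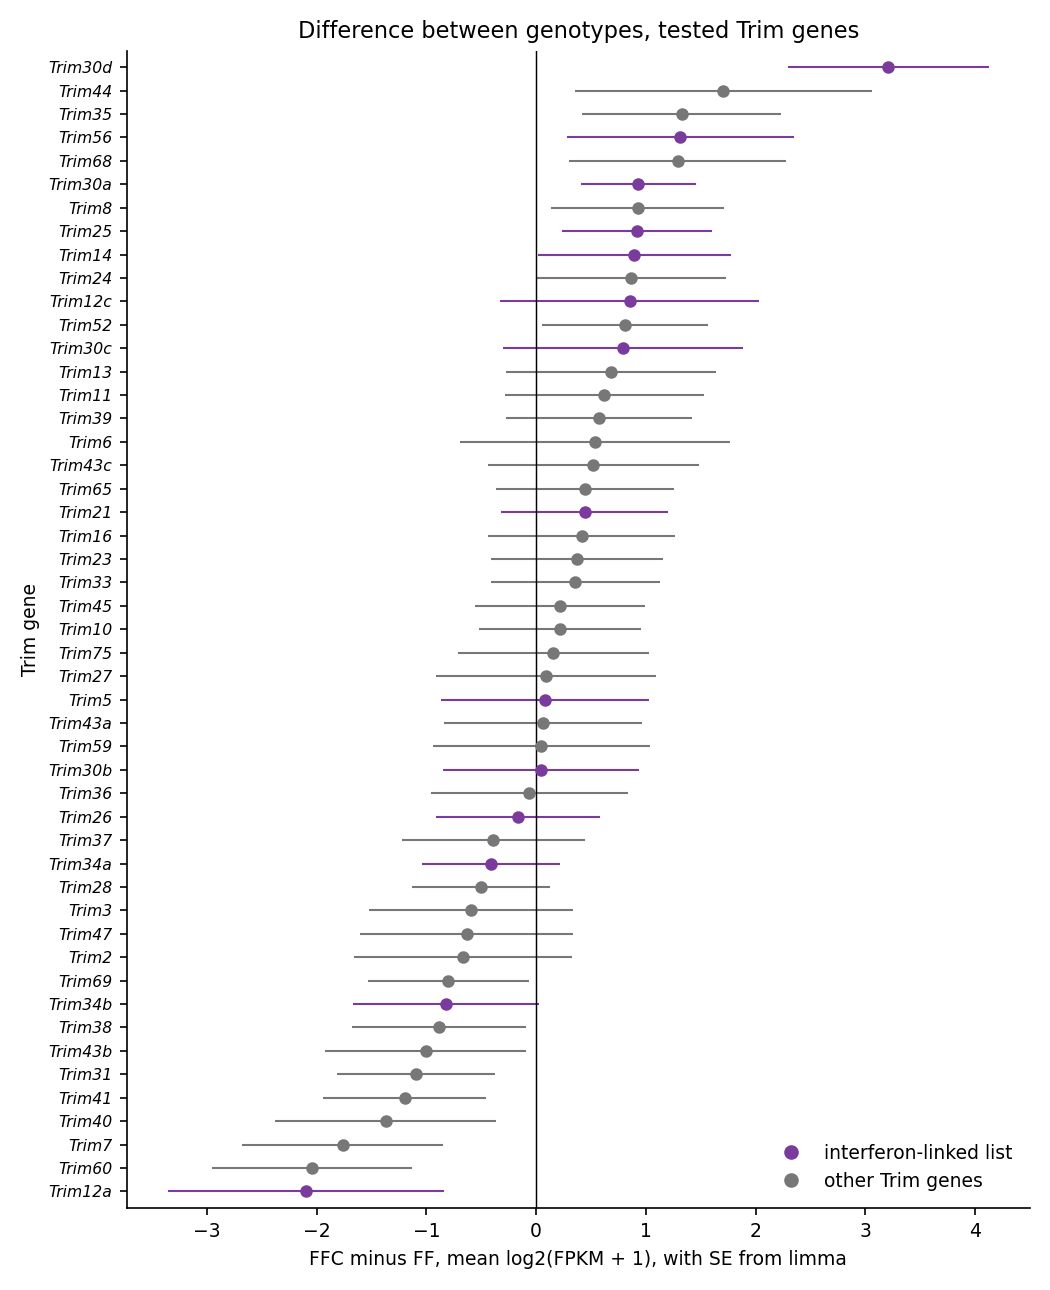
Difference of mean log2(FPKM + 1), FFC minus FF, for the 49 tested Trim genes, with the standard error from limma (n = 4 libraries per genotype); members of the interferon-linked list are purple. Differences run from -2.10 (Trim12a) to 3.21 (Trim30d), and none passed the adjusted threshold.

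The interferon-linked list held 15 entries, of which 14 were tested, and 10 had a higher mean in FFC (71.4%, against 56.7% of all genes). Its median difference was 0.62, against 0.19 for all genes, with a range from -2.10 to 3.21. The median stayed between 0.32 and 0.82 in all 20 alternative analyses, lowest without FF 2. Averaged over the tested members of this list, mean log2(FPKM + 1) was 2.86 to 3.84 in the FF libraries and 3.44 to 4.25 in the FFC libraries, so the genotypes overlapped. The 10 microglial markers had a median difference of 0.65, with 8 higher in FFC, and their part in this shift was not tested.

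Trim30a, an interferon-inducible protein that restrains Toll-like receptor signalling to NF-kappaB, had the smallest within-genotype SD when both genotypes are pooled. FF 1 to FF 4 read 123, 77.6, 99.6 and 47.9 FPKM in that order, and FFC 1 to FFC 4 read 137, 128, 175 and 202 FPKM. Values below follow the same order of libraries. Every FFC library was above every FF library, by a narrow gap between FF 1 and FFC 2. The means were 87.0 ± 32.0 and 160.3 ± 34.3 FPKM (SD, n = 4 each), a log2 difference of 0.93 ± 0.52 (SE). The exact two-sided permutation p was 0.0286, the smallest that 4 against 4 libraries allow. Any gene without overlap gets this p, so it adds nothing to the separation by which Trim30a was picked. Over all genes, 3.05% were higher and 1.29% lower in FFC without overlap. Limma gave an unadjusted p of 0.0985 and an adjusted p of 0.759. The difference was 1.10 in females and 0.76 in males (2 libraries per genotype each), 0.48 among the November libraries (3 FF, 1 FFC) and 1.76 among the December libraries (1 FF, 3 FFC). It was 0.51 when FF 2 and FF 4, which had the most receptor signal, were left out.

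Trim30d, a close relative of Trim30a, had the largest difference of the family. Its FF values were 0.207, 1.17, 6.76 and 0.321 FPKM, and its FFC values 44.2, 18.4, 35.5 and 5.13 FPKM. FF 1, FF 2 and FF 4 lay below all FFC libraries, and FF 3 lay above FFC 4 only. The log2 difference was 3.21 ± 0.92 (SE), with an unadjusted limma p of 0.00376, an adjusted p of 0.605 and an exact permutation p of 0.0571. It was 3.72 in females, 2.70 in males, 4.05 in November and 3.63 in December libraries. A pseudocount of 5 in place of 1 brought it to 1.97, and without FF 2 and FF 4 it was 2.78.

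Trim30b and Trim30c, the other members of this branch, varied more. Trim30c read 6.73, 0.182, 23.2 and 1.73 FPKM (FF) against 0.552, 11.3, 12.9 and 19.3 FPKM (FFC), with FFC 1 low and FF 3 high. Trim30b (the longer of its 2 entries) read 0.131, 1.03, 1.40 and 9.67 FPKM (FF) against 0.755, 4.28, 0.789 and 2.99 FPKM (FFC). Neither separated the genotypes, with differences of 0.79 ± 1.10 and 0.04 ± 0.89 (log2, SE). The 5 Trim30 entries were also summed, a step chosen after the values were seen. The sum was 130.2, 81.8, 131 and 59.6 FPKM (FF) against 183, 162, 224 and 229 FPKM (FFC), without overlap, with means of 101 ± 35.7 and 199 ± 32.7 FPKM (SD, n = 4). Trim30a makes up most of this sum in every library, so the sum is not separate from it.

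**Figure D3:**
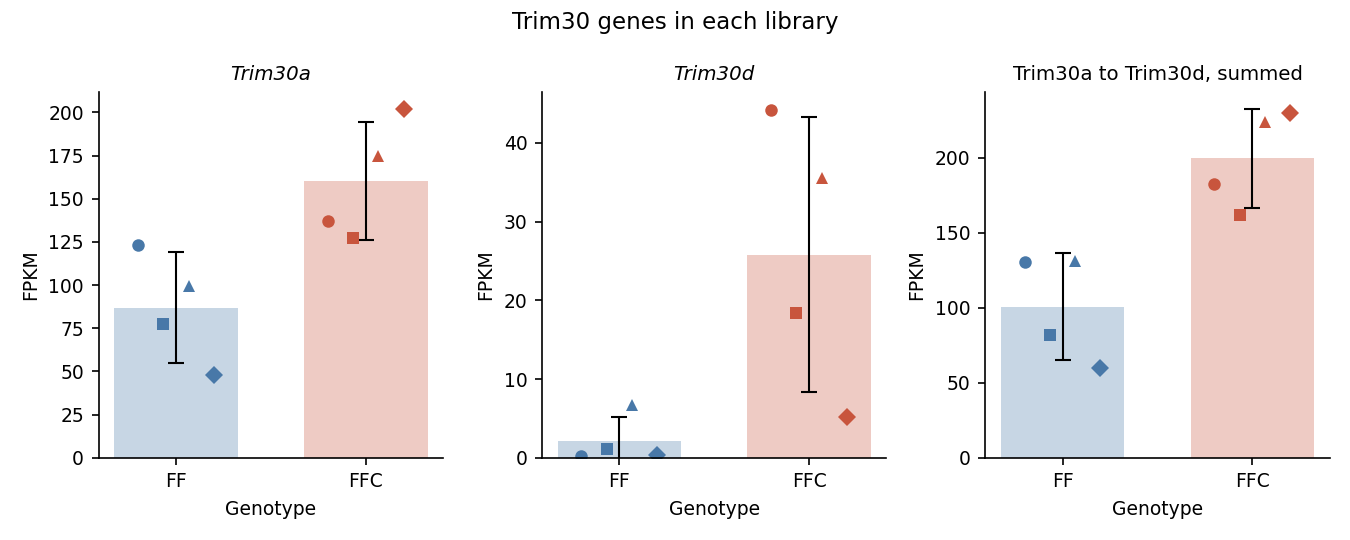
FPKM of Trim30a, of Trim30d and of the 5 Trim30 entries summed, with 1 symbol per library (circle replicate 1, square 2, triangle 3, diamond 4), bars at the genotype mean and lines for the SD of 4 libraries. The SD line of Trim30d in FF is cut at 0. FFC values lie above all FF values for Trim30a and the sum, and Trim30d overlaps through FF 3 (6.76 FPKM) and FFC 4 (5.13 FPKM).

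The mouse relatives of the retroviral restriction factor TRIM5 did not share a direction. Trim12c, the most abundant of them, read 30.3, 68.7, 360.4 and 7.24 FPKM (FF) against 9.43, 188, 103 and 337 FPKM (FFC), a difference of 0.85 ± 1.18 (log2, SE). FF 3 and FFC 4 were the high libraries, and FF 4 and FFC 1 the low ones, so both genotypes covered almost the same range. Trim12a read 24.7, 178, 17.5 and 2.05 FPKM (FF) against 9.70, 28.2, 0.178 and 1.11 FPKM (FFC), with FF 2 far above the rest. Its difference, -2.10 ± 1.26, was the lowest of the family and did not pass (limma adjusted p = 0.759, exact permutation p = 0.229). Trim5 was low, with 0.0401, 0.0563, 0.626 and 8.87 FPKM (FF) against 1.96, 5.39, 0.0975 and 0.0527 FPKM (FFC). Summed, Trim5, Trim12a and Trim12c differed by 0.20 on the log2 scale.

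Trim34a and Trim34b, interferon-inducible neighbours of Trim5, had lower means in FFC. Trim34a was even across libraries, with 31.1, 27.4, 19.4 and 54.0 FPKM (FF) against 37.0, 17.2, 23.7 and 18.1 FPKM (FFC). Trim34b read 14.8, 1.57, 5.77 and 9.11 FPKM (FF) against 1.39, 4.70, 6.62 and 1.77 FPKM (FFC). Both pairs of groups overlapped, with differences of -0.41 ± 0.63 and -0.82 ± 0.85 (log2, SE).

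The remaining interferon-linked members lie outside this cluster. Trim25, the ligase that activates the RNA sensor RIG-I, read 26.4, 11.0, 18.2 and 5.84 FPKM (FF) against 30.8, 21.6, 18.9 and 37.6 FPKM (FFC). Only FF 1 exceeded some of the FFC libraries, and the difference was 0.92 ± 0.68 (log2, SE; exact permutation p = 0.114). Trim21, the cytosolic receptor for antibody-coated virus, was nearly constant in FF, at 9.84, 12, 10.4 and 11.6 FPKM, and spread over 41.2, 18.3, 16.0 and 3.97 FPKM in FFC. In FFC, 3 libraries lay above every FF library and FFC 4 lay below them all. Trim14, an adaptor of RNA sensing at mitochondria, read 19.7, 3.33, 1.45 and 2.40 FPKM (FF) against 21.9, 5.09, 5.25 and 9.17 FPKM (FFC). Trim26 read 8.16, 30.4, 25.4 and 7.89 and 13.2, 26.5, 13.1 and 6.66 FPKM in the same order, and its difference was -0.17 ± 0.75. Trim56, which acts in sensing of viral nucleic acid, was above 10 FPKM in FF 3 and FFC 2 alone (15.4 and 17.5 FPKM). The groups overlapped for all of these, and their adjusted p-values (limma) ranged from 0.759 for Trim25 to 0.962 for Trim26.

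In the genome, 31 of the 68 entries fell into 8 clusters whose neighbours lie within 500 kb. The largest, chr7:111367307-111656363 in mm9, holds 11 entries over 289 kb: Trim6, Trim34a, Trim5, Trim12a, Trim34b, Trim12c, Trim30b (listed under 2 identifiers), Trim30c, Trim30a and Trim30d. Of its 10 tested entries 7 had a higher mean in FFC, where 56.7% of all genes did. The summed level of the 11 was 231, 407, 535 and 142 FPKM (FF) against 248, 407, 358 and 603 FPKM (FFC), which overlap. Gene spans overlap here: that of Trim34a (chr7:111392971-111489207) contains Trim5, Trim12a and Trim34b and part of Trim12c, and Trim12a shares 97.8% of its span with Trim34b. Whether the counting used strand is not given, so reads from overlapping spans may not be separable. Transcripts of newer gene models also share sequence: 56.8% of the 50-base words of Trim34b occur in another Trim member, 39.8% of those of Trim34a, 29.5% of Trim5 and 28.8% of Trim12c, against 7.86% of Trim12a, 7.49% of Trim30d and 5.98% of Trim30a. Values of Trim5, Trim12a, Trim12c, Trim34a and Trim34b are therefore uncertain as single genes.

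**Figure D4:**
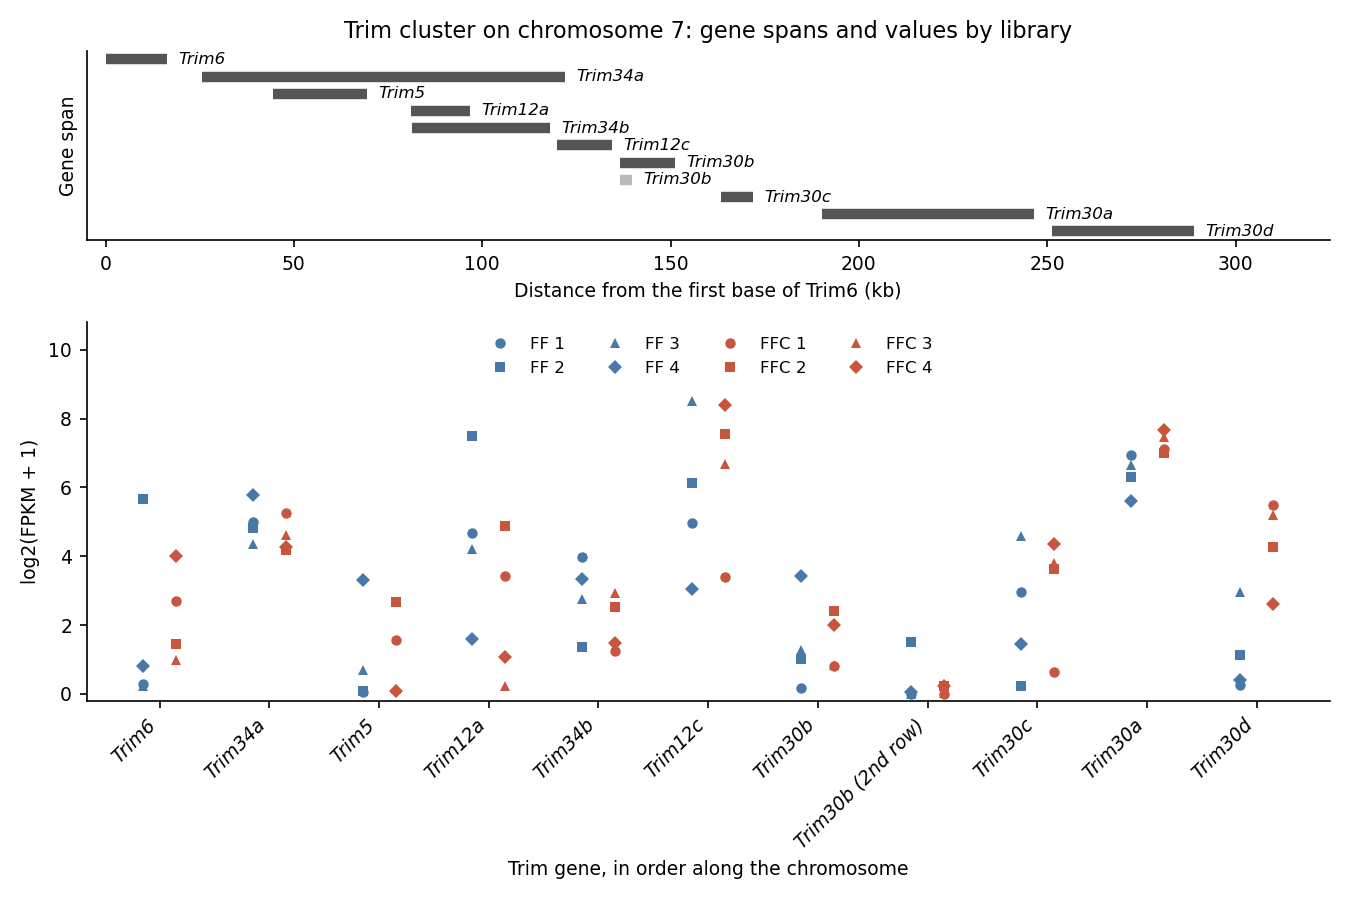
Top, spans of the 11 Trim entries of the chromosome 7 cluster by distance from the first base of Trim6 (kb), with the second Trim30b entry in grey; bottom, log2(FPKM + 1) of each entry in every library in the same order (blue FF, red FFC). Trim30a and Trim34a have tight groups, whereas Trim6, Trim12a and Trim12c spread over several log2 units within a genotype.

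Trim6, at the other end of the cluster, read 0.216, 49.4, 0.173 and 0.746 FPKM (FF) against 5.48, 1.71, 0.977 and 15.0 FPKM (FFC), so FF 2 alone sets its high FF mean. On chromosome 17, Trim26, Trim15, Trim10, Trim40 and Trim31 lie side by side within the major histocompatibility region (chr17:36974079-37047159). Of the 4 tested there, 1 had a higher mean in FFC, Trim10.

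The transcriptional cofactors of the TIF1 group were well expressed and did not separate the genotypes. Trim28, the corepressor that silences retroelements with KRAB zinc finger proteins, read 206, 62.9, 135 and 139 FPKM (FF) against 37.6, 69.0, 162 and 141 FPKM (FFC). FF 1 was highest and FFC 1 lowest, with a difference of -0.50 ± 0.63 (log2, SE). Trim24, a nuclear receptor cofactor, read 5.24, 1.95, 28.3 and 25.2 FPKM (FF) against 32.6, 9.04, 17.7 and 23.3 FPKM (FFC) (0.86 ± 0.86). Trim33, which acts on Smad signalling, read 10.3, 6.00, 10.9 and 1.97 FPKM (FF) against 4.50, 12.8, 11.1 and 7.14 FPKM (FFC) (0.36 ± 0.77). Of the 3 tested, 2 had a higher mean in FFC, and Trim66 stayed below the limit, with 0.284 FPKM as its highest value.

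Among the members with NHL repeats, which can bind RNA, Trim2 and Trim3 were tested and both had lower means in FFC. Trim2, a neuronal ligase for neurofilament, read 41.7, 2.86, 8.02 and 81.5 FPKM (FF) against 3.07, 23.3, 12.4 and 13.5 FPKM (FFC), with high values in the 2 female FF libraries. Trim3, also known from neurons, read 17.6, 3.53, 20.3 and 68.9 FPKM (FF) against 11.2, 21.9, 23.2 and 2.61 FPKM (FFC). The differences were -0.67 ± 0.99 and -0.59 ± 0.93 (log2, SE). Trim32, a ligase mutated in a muscular dystrophy, was 1.81, 4.36 and 0.779 FPKM in FF 1, FF 3 and FF 4 and 1.27, 3.49, 3.18 and 3.01 FPKM in FFC. Trim71, a stem cell protein, did not exceed 0.478 FPKM. Summed neuronal markers were 0.0254 to 2.30 FPKM, and their part in these values was not tested.

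The list of regulators of immune sensing had 16 members, 15 tested, of which 10 were higher on average in FFC (66.7%, against 56.7% of all genes). Its median difference was 0.37 (0.19 for all genes). Without FF 2 and FF 4 that median was -0.48. Trim44, which lacks a RING finger and carries a ubiquitin-binding zinc finger instead, read 791, 1.56, 77.7 and 22.8 FPKM (FF) against 71.9, 53.1, 509.9 and 213 FPKM (FFC). The FF values alone covered more than the whole FFC range, and the difference was 1.71 ± 1.36 (log2, SE). It turned to -0.79 without FF 2 and FF 4. Trim47 read 57.6, 20.2, 27.7 and 11.4 and 1.61, 24.6, 13.0 and 80.7 FPKM in the same order. The span of Trim47 overlaps that of Trim65 by 5365 bases, so reads of these genes may not be separable either. Trim13, a ligase of the endoplasmic reticulum, read 6.67, 9.69, 3.73 and 54.1 FPKM (FF) against 33.0, 7.43, 6.65 and 63.4 FPKM (FFC), with FF 4, FFC 1 and FFC 4, all female, as the high libraries.

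Lower means in FFC within this list came from Trim31, Trim38, Trim40, Trim41 and Trim47. Of these, Trim31, Trim38 and Trim40 met the limit for testing only through their FF values. Trim41, a ligase for protein kinase C, read 15.9, 56.1, 23.3 and 10.9 FPKM (FF) against 17.4, 4.39, 8.50 and 9.75 FPKM (FFC). FFC 1 lay within the FF range and the other FFC libraries below it, with a difference of -1.20 ± 0.74 (log2, SE; exact permutation p = 0.0857). The end of Trim41 overlaps by 31 bases with Gnb2l1, which had a mean of 364 FPKM. Trim40, best known from the gut, read 11.3, 12.1, 0.551 and 0 FPKM (FF) against 0.131, 3.14, 0.155 and 0.0293 FPKM (FFC). Trim31, an epithelial ligase that acts on the adaptor MAVS, read 2.08, 0.985, 0.299 and 4.39 FPKM (FF) against 0.0714, 0, 0.915 and 0 FPKM (FFC), with only FFC 3 inside the FF range. Their differences were -1.37 ± 1.01 and -1.10 ± 0.72, with exact permutation p-values of 0.257 and 0.0571.

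Trim35 and Trim7 were in none of the role lists. Trim35 read 5.48, 1.07, 3.78 and 1.21 FPKM (FF) against 37.2, 5.18, 2.90 and 5.08 FPKM (FFC), and FFC 1 alone was above 10 FPKM. Trim7, a ligase first described as a partner of glycogenin, read 24.3, 0.744, 7.19 and 3.26 FPKM (FF) against 1.20, 0.838, 0.361 and 1.10 FPKM (FFC). Its FF 2 value fell within the FFC range and the other FF values above it. The differences were 1.33 ± 0.91 and -1.76 ± 0.91 (log2, SE), and neither passed (limma adjusted p = 0.759 for both).

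Members known from germline, embryo or epithelium numbered 12, of which 7 were tested. Of these, 4 had a higher mean in FFC (57.1%, against 56.7% of all genes, median difference 0.06). That median was -0.31 without FF 1 and 0.83 without FF 2. Trim60, which met the limit for testing only through its FF values, had the second lowest difference of the family. It read 4.38, 20.3, 0.0337 and 2.67 FPKM (FF) against 0.0780, 0.0990, 0.213 and 0.0516 FPKM (FFC), so no FFC library exceeded 0.213 FPKM and FF 3 was lower still. The difference was -2.04 ± 0.91 (log2, SE), with an unadjusted limma p of 0.0432, an adjusted p of 0.755 and an exact permutation p of 0.143. The spans of Trim60 and Trim61 overlap, and Trim61 read 0.0762 to 1.44 FPKM in FF and at most 0.103 FPKM in FFC. The identifier listed as Trim61 carries the symbol Apela in a newer annotation.

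Trim43a, Trim43b and Trim43c, preimplantation embryo genes on chromosome 9, were all highest in FF 2, at 9.88, 15.9 and 16.3 FPKM. In the other libraries they stayed between 0.00540 and 7.17 FPKM. The differences were 0.06 ± 0.90, -1.01 ± 0.91 and 0.52 ± 0.96 (log2, SE). Between 42.1% and 46.8% of their 50-base words occur in another Trim member, and the symbols of Trim43a and Trim43c are exchanged in a newer annotation, so the 3 are uncertain as single genes. Their sum differed by -0.14.

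The members that mark other tissues were low. Trim54, Trim55 and Trim63, ligases of striated muscle, and Trim72, a muscle membrane repair protein, had highest values of 1.38, 1.15, 0.411 and 0.582 FPKM, all in FF. None of these 4 met the limit for testing. Of the 7 members with a COS box, which binds microtubules, Trim36 was tested (0.170 to 8.13 FPKM in FF, 1.34 to 6.65 FPKM in FFC, difference -0.06 ± 0.90). Trim46, a protein of the axon initial segment, reached 6.65 FPKM in FF 4 and at most 0.370 FPKM elsewhere. Its span overlaps by 344 bases with Krtcap2, which had a mean of 154 FPKM. The erythroid members Trim10 and Trim58 reached 2.59 and 1.91 FPKM, in FF 2 and FFC 4, and Trim10 differed by 0.22 ± 0.74.

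Of the 4 family proteins with symbols outside the Trim series, Pml, Mid1 and Mefv were tested. Pml, the organiser of nuclear bodies, read 19.0, 61.3, 3.66 and 5.69 FPKM (FF) against 68.7, 5.31, 35.0 and 20.5 FPKM (FFC) (0.78 ± 0.97). Mid1, a microtubule-associated ligase, ranged from 5.03 to 25.7 FPKM in FF and 2.51 to 20.5 FPKM in FFC (-0.54 ± 0.82). Mefv, the inflammasome protein pyrin, exceeded 1 FPKM in FF 4 and FFC 1 alone (6.46 and 1.32 FPKM, difference -0.35 ± 0.80).

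Leaving out 1 library, or FF 2 and FF 4 together, turned the sign of the difference for Trim44, Trim12c, Trim47, Trim2, Trim3, Trim33, Trim36, Trim43a, Trim43b, Trim43c, Trim10, Mid1 and Mefv. It turned no sign among Trim30a, Trim30d, Trim28, Trim12a, Trim34a, Trim13, Trim25, Trim41, Trim24, Trim35, Trim7, Trim60, Trim40 and Trim31. The sizes were less stable than the signs. When 1 library was left out, the difference ranged from -0.83 to -0.10 for Trim28, 0.10 to 1.41 for Trim13, 0.23 to 1.34 for Trim24, -0.63 to -0.15 for Trim34a and 0.56 to 1.23 for Trim25. It ranged from -3.06 to -1.10 for Trim12a, 0.61 to 1.71 for Trim35, -1.51 to -0.76 for Trim41, -2.04 to -0.80 for Trim40, -2.38 to -1.09 for Trim7 and -2.76 to -1.30 for Trim60. The range was 0.67 to 1.12 for Trim30a, 2.84 to 3.80 for Trim30d and -1.42 to -0.74 for Trim31.

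The pathways around the family were read from 4 further lists, and none of their genes passed the adjusted threshold. Interferon receptors and signal transducers had 10 of 13 means higher in FFC (median difference 0.80). Irf1, an interferon-induced transcription factor, read 5.23, 0.307, 3.48 and 7.64 FPKM (FF) against 28.3, 26.4, 22.4 and 9.79 FPKM (FFC) (2.33 ± 0.81, limma adjusted p = 0.712). Ifngr2, a subunit of the interferon gamma receptor, differed by 1.88 ± 0.75. Unadjusted p-values under 0.05 numbered 4 of 13, all higher in FFC, where 4.52% of all genes were. Irf1 was the 1 gene of the 13 that was higher in FFC without overlap, against 3.05% of all genes.

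Interferon-stimulated genes outside the Trim family had 14 of 15 means higher in FFC, with a median difference of 1.37, above that of the interferon-linked Trim genes (0.62). Mx2, an antiviral GTPase, read 0.156, 0.0458, 2.40 and 0.0705 FPKM (FF) against 6.01, 8.50, 7.31 and 7.26 FPKM (FFC), without overlap (2.51 ± 0.78). Rtp4 and Herc6, both interferon-induced, differed by 2.91 ± 0.92 and 2.26 ± 0.80, also without overlap. With Ifi44, named after its values were seen, 4 of the 15 genes were higher in FFC without overlap, against 3.05% of all genes. Unadjusted p-values under 0.05 numbered 6 of 15, all higher in FFC, against 4.52% of all genes, and the smallest limma adjusted p was 0.651.

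Sensors and adaptors upstream of interferon, on which several TRIM ligases act, had 10 of 12 means higher in FFC (median difference 0.52). Ddx58, which encodes RIG-I, the substrate of Trim25, read 7.26, 11.9, 14.3 and 10.1 FPKM (FF) against 49.9, 28.5, 31.9 and 32.0 FPKM (FFC), without overlap (1.63 ± 0.62, limma adjusted p = 0.712). Ifih1, a related RNA sensor, differed by 2.37 ± 0.80, and Tank, an adaptor of the downstream kinase complex, by 1.21 ± 0.67. Ddx58 was the 1 gene of the 12 that was higher in FFC without overlap, against 3.05% of all genes. Unadjusted limma p-values under 0.05 numbered 2 of 12, all higher in FFC, against 4.52% of all genes. Ubiquitin-conjugating enzymes had 7 of 8 tested means higher in FFC (median difference 0.58). The activating enzyme Uba1, also in this list, was not tested because its FF 2 value was missing. Ube2n, which builds signalling chains with RING ligases, read 29.7, 1.55, 14.2 and 1.43 FPKM (FF) against 5.98, 49.3, 18.0 and 82.5 FPKM (FFC). Its difference was 1.90 ± 1.03 (log2, SE), and 0.34 without FF 2 and FF 4. Ube2l6, interferon-induced, and Ube2d3 differed by 1.72 ± 0.94 and 0.71 ± 0.59. The part of the microglial markers (median difference 0.65) in these 4 lists was not tested either.

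Sex was compared with genotype as a covariate. No Trim member and none of the 17753 genes passed (limma, 0%). At an unadjusted p under 0.05, Trim12c was higher in males (by 2.27 on the log2 scale), where 2.57% of all genes were, and Trim13 was lower in males (-2.04), where 1.43% were. The interaction of genotype and sex also gave 0 members and 0% of genes. Its unadjusted p was under 0.05 for Trim2 (4.56 on the log2 scale) and Trim27 (-4.59), against 3.19% of all genes. Trim27 read 4.20, 28.4, 37.6 and 0.887 FPKM (FF) against 11.3, 3.65, 10.5 and 20.8 FPKM (FFC), with the 2 male FF libraries high.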

How the data were processed

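RNA from microglia was amplified with the Ovation method and sequenced, per the labels' protocols. The authors deposited FPKM values for 37447 genes, 1 column per library, and no other data type was used. Per the submitters' processing notes, Cufflinks 2.0.2, Bowtie2 2.0.0, TopHat2 2.0.4 and CASAVA 1.8.2 were used with build mm9. Which annotation was used, and whether strand was, is not given. No read counts come with FPKM, so depth is unknown and no counting interval was given. In the table, 447 genes had a missing value (331 in all libraries) and were not tested. Deposited starts count from 0, since 21680 gene lengths then equal those of GENCODE M21 against 420 otherwise, and were printed from 1. The deposited FPKM values were used unscaled as log2(FPKM + 1), for 17753 genes with a mean of at least 1. Genotype, sex and their interaction were tested with limma 3.58.1 in R 4.3.3 (two-sided, trended empirical Bayes, threshold 0.05 after Benjamini-Hochberg adjustment), and single genes also with exact permutation over 70 arrangements. The fit was also run on simulated independent normal values with the same SD in both genotypes. That run checks the code and does not show what could be detected in these libraries. Other steps and figures used pandas 2.3.3, numpy 2.4.6, matplotlib 3.10.9 and scipy 1.17.1 in Python 3.11.15. The members and lists were chosen with earlier results of these data known. Members named one by one were the 10 highest, the 10 with the smallest p, any without overlap, and the leading members of each role list (34 in all), with the 3 of smallest p from each further list, of which 1 is not reported here. Other members are named where a group or cluster is described, chosen after their values were seen. Alternatives were other pseudocounts (0.1 and 5), filters (none, mean of at least 5 FPKM) and scalings, robust variances, a term for sex, for month or for replicate number, and each library left out in turn; leaving out FF 2 and FF 4 together and summing copies were added after seeing the data. Protein sequences were not analysed here, and shared transcript words of 50 bases took their place.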

Additional observations from a re-analysis of the deposited data

Results flagged for a closer look

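Within a genotype, 1 library stood far from the other 3 for 5 named members, in 6 groups. The named members form 68 groups, of which Trim32 in FF was not examined because of its missing value. Normally distributed values give such a gap in about 1 of 20 groups, a rate that need not hold near 0 FPKM. Trim40 in FFC was set by FFC 2, at 3.14 FPKM, and Trim31 in FFC by FFC 3, at 0.915 FPKM, so the FFC means of these lower members rest on 1 library each. Trim32, not tested because of its missing value, was lowest in FFC 1, at 1.27 FPKM. Trim46 was highest in FF 4, at 6.65 FPKM, and within FFC in FFC 1, at 0.370 FPKM. Trim54 was highest in FF 1, at 1.38 FPKM.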

How the results depend on the processing

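Across 20 alternatives no Trim member passed limma's adjusted threshold (smallest adjusted p 0.471). The count over all genes was 0, except 1 without FF 1 and 1 without FFC 4. Trim30a, Trim30d and the median of the interferon-linked list kept their direction in every one of these alternatives. So did the median over the genes of the main test. The median over all tested members did not: it was 0.54 with a mean of at least 5 FPKM, 0.046 without a filter, 0.48 and -0.0022 with pseudocounts of 0.1 and 5, -0.098 without FF 2 and FF 4, and 0.014 to 0.26 when 1 library was left out. With a mean of at least 5 FPKM, 20 of 29 members were higher, and the germline and epithelial list gave no value. Of 49 members, 24 were higher (49.0%) with a pseudocount of 5 and without FF 2 and FF 4, against 55.3% and 52.6% of all genes, and 25 (51.0%) without FF 1, against 58.5%.

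Some single genes changed sign, none of them past the threshold. Without FF 2 and FF 4 the differences were -0.79 for Trim44, -0.22 for Trim12c, -0.32 for Trim33, 1.07 for Trim36, 0.10 for Trim43b, 0.064 for Mid1 and 0.32 for Mefv. Trim36 was 0.25 with a pseudocount of 0.1. Trim43a was -0.13 with equal sums, -0.064 with month as a term, -0.088 with a pseudocount of 5, -0.11 with quantile normalization and -0.090 with upper-quartile scaling. When 1 library was left out the range was -0.018 to 1.90 for Trim12c, -1.40 to 0.26 for Trim47, -1.43 to 0.044 for Trim2, -1.27 to 0.042 for Trim3, -0.075 to 0.61 for Trim33, -0.062 to 1.30 for Trim43c, -0.66 to 0.32 for Trim36, -0.31 to 0.83 for Trim43a, -0.011 to 0.57 for Trim10 and -0.63 to 0.33 for Mefv. The cause of these changes was not tested.

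Replicate numbers did not pair the libraries: same-numbered libraries had correlations of -0.052 to 0.034 in their deviations. With the replicate number as a block, 0 members passed, 31 were higher and the median was 0.22; Trim30d and Trim12a had unadjusted p-values under 0.05. The unknown depth and 4 libraries per genotype limit what could be detected. Genes listed at 0 may be failed estimates, and copies with shared sequence are uncertain one by one.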
